A study of Rattus norvegicus with 8 samples.

Results

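The rat miRNAs rno-miR-106b, rno-miR-93 and rno-miR-25 (below without the species prefix) come from 3 neighbouring hairpins and were measured in cardiomyocytes isolated from rats on postnatal day 10 (P10) and on postnatal day 0 (P0). They were taken by gene name from the array, where they make up 3 of 677 miRNAs and are read by 6 probes of 10 spots each. Each age was represented by 4 one-colour arrays of total RNA, from rats of either sex. The labels name no strain, genotype or treatment. P0 is their name for the younger age, which the title of the series gives as day 1. They describe P10 cells as dividing less, so the question for the cluster is how its 3 miRNAs compare across this change. Since the labels tie no replicate to an animal or culture of its own, the p-values speak for the scatter of these samples alone, and that scatter could be technical.

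MicroRNAs repress messenger RNAs that pair with their seed, bases 2 to 8 of the mature strand. The hairpins of the miR-106b/93/25 cluster are processed from a transcript of Mcm7, which encodes a subunit of the helicase that opens DNA for replication, and the cluster is known to follow the E2F factors of the cell cycle. miR-106b and miR-93 share their seed with miR-17 and miR-20a, a group known for repressing the cell cycle inhibitor Cdkn1a. miR-25 has the seed of the miR-92 group, is known for repressing the pro-apoptotic gene Bcl2l11, and in mouse heart is known for repressing the calcium pump gene Atp2a2. Rodent cardiomyocytes largely stop dividing in the first weeks after birth.

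The mature sequences (RefSeq, GRCr8) are shown because the seeds split the cluster into 2 groups, with the seed in capitals and the relatives with the same seed below each.
miR-106b: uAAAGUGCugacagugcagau
miR-93: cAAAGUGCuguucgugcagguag
miR-17-5p: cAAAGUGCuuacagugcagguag
miR-20a: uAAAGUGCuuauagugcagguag
miR-20b-5p: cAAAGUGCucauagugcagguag
miR-25: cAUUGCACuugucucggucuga
miR-92a: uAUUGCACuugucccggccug
In GRCr8 the mature strands of miR-106b (chr12:22157103-22157123), miR-93 (chr12:22156894-22156916) and miR-25 (chr12:22156652-22156673) lie on the minus strand. The 3 hairpin genes span 494 bp, with 122 bp between those of miR-106b and miR-93 and 119 bp between those of miR-93 and miR-25. All 3 fall within the span of Mcm7 (chr12:22155921-22163320), which is on the same strand, so miR-106b comes first in the direction of transcription. The table used carries no exons.

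Each miRNA was read by 2 probes that differ by 1 base, shown because the array reports the 3′ part of the mature strand and not the seed alone. In capitals is the base that the longer probe adds to the shorter one.
miR-106b probe: atctgcactgtcagcaC
miR-93 probe: ctacctgcacgaacaG
miR-25 probe: tcagaccgagacaagtgC
The scanner files place the longer probes on rn4 at chr12:17608398-17608413 for miR-106b, chr12:17608195-17608209 for miR-93 and chr12:17608026-17608042 for miR-25. Counted with both ends, each of these intervals is shorter than its probe, and their strand and spacing were not checked against GRCr8. In an ungapped comparison with all other rat mature miRNAs of the RefSeq table, overhanging ends included, the closest match to the miR-106b probe was miR-17-5p, with 2 mismatches over 17 bases. miR-20a and miR-20b-5p each had 3 mismatches to the miR-93 probe over 16 bases. miR-92a came closest to the miR-25 probe, with 2 mismatches and 1 probe base past the end of the miRNA over 18 bases, followed by miR-92b with 5 mismatches. Binding of relatives to these probes was not tested.

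The arrays differed in brightness before scaling. The signal to which an array was scaled, the 75th percentile of its 111 probes detected on all arrays, was 579.7 to 1276 intensity units on P10 arrays, against 806 to 1326 units on P0 replicates 2 to 4 and 116 units on P0 replicate 1. P10 arrays detected 169 to 187 miRNAs, against 157 to 176 on P0 replicates 2 to 4 and 73 on P0 replicate 1. The P10 arrays formed near-identical pairs: over 158 tested miRNAs, the difference between replicates 1 and 2 had an SD of 0.125 (log2) and that between replicates 3 and 4 of 0.176, against 0.995 to 1.04 across the pairs. Results are therefore also given without P0 replicate 1 and with each P10 pair averaged. All arrays shared 1 slide and 1 scan, with the ages on separate rows of the slide, so age and row cannot be told apart. The heart miRNAs miR-1, miR-133a and miR-133b were detected on all 8 arrays. The other listed heart miRNAs were not: miR-499 was detected on 4 P10 and 3 P0 arrays and miR-208 on 4 P10 and 1 P0 array. miR-208b had no probe.

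All 3 cluster miRNAs were detected at both ages, and none differed between P10 and P0 past the threshold when all 8 arrays were used. Each was well above background on every array with its brighter probe, the longer one. On P0 replicate 1 this held for 0.8 of the miR-25 spots. The lowest detected level there was -2.84 (log2), against -6.59 to -5.87 on the other P0 arrays. miR-93 at -2.69 and miR-25 at -2.60 were near that limit. The background to this is that 14 of 158 tested miRNAs, 8.86%, passed an adjusted p of 0.05 (limma with Benjamini-Hochberg adjustment), 4.43% in each direction, against 0 of the 3 members. The P10 and P0 values of all 3 members overlapped, as did those of all but 25.9% of tested miRNAs. In bulk RNA, fewer cells of a type and less of a miRNA per cell cannot be told apart.

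For miR-106b, the first hairpin of the cluster, the brighter probe read 310.2, 274, 426 and 451 intensity units on P10 replicates 1 to 4, against 34.03, 612, 352 and 554 units on P0 replicates 1 to 4. After scaling, these were log2 levels of -1.07, -1.08, -1.58 and -1.49 at P10, against -1.76, -1.12, -1.20 and -1.07 at P0. The first P10 pair thus lay among the brighter P0 arrays, the second P10 pair lay below them, and P0 replicate 1 was lowest of all. The mean level was -1.31 ± 0.27 at P10 and -1.29 ± 0.32 at P0 (SD, n = 4 each). The difference was log2 -0.022 ± 0.25 (SE), with limma's adjusted p at 0.956 and a 95% interval from -0.58 to 0.54, or 0.667-fold to 1.45-fold.

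miR-93, the middle hairpin, read 184, 159, 184 and 187 units at P10, against 17.9, 309, 180.5 and 266 units at P0. Scaled, its levels were -1.83, -1.87, -2.79 and -2.76 at P10, against -2.69, -2.10, -2.16 and -2.13 at P0. The P10 pairs stood on either side of P0 replicates 2 to 4, so the groups overlapped. Mean levels were -2.31 ± 0.54 at P10 and -2.27 ± 0.28 at P0 (SD, n = 4 each). These differ by log2 -0.043 ± 0.31 (SE), with limma's adjusted p at 0.931 and a 95% interval from -0.74 to 0.65, or 0.599-fold to 1.57-fold. Of the 3, miR-93 was the one with the widest gap between the P10 pairs, 0.93 (log2), against 0.60 for miR-25 and 0.46 for miR-106b.

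miR-25, the last hairpin and the one with the other seed, read 273, 243, 352 and 352 units at P10, against 19.1, 386, 225 and 343 units at P0. Scaled levels were -1.26, -1.26, -1.86 and -1.85 at P10, against -2.60, -1.78, -1.84 and -1.76 at P0. The first P10 pair was above every P0 array, while the second pair lay just below P0 replicates 2 to 4. The mean was -1.56 ± 0.35 at P10 and -1.996 ± 0.40 at P0 (SD, n = 4 each). The difference of log2 0.44 ± 0.28 (SE) did not pass in limma (adjusted p = 0.314), with a 95% interval from -0.20 to 1.08, or 0.870-fold to 2.11-fold.

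**Figure D1:**
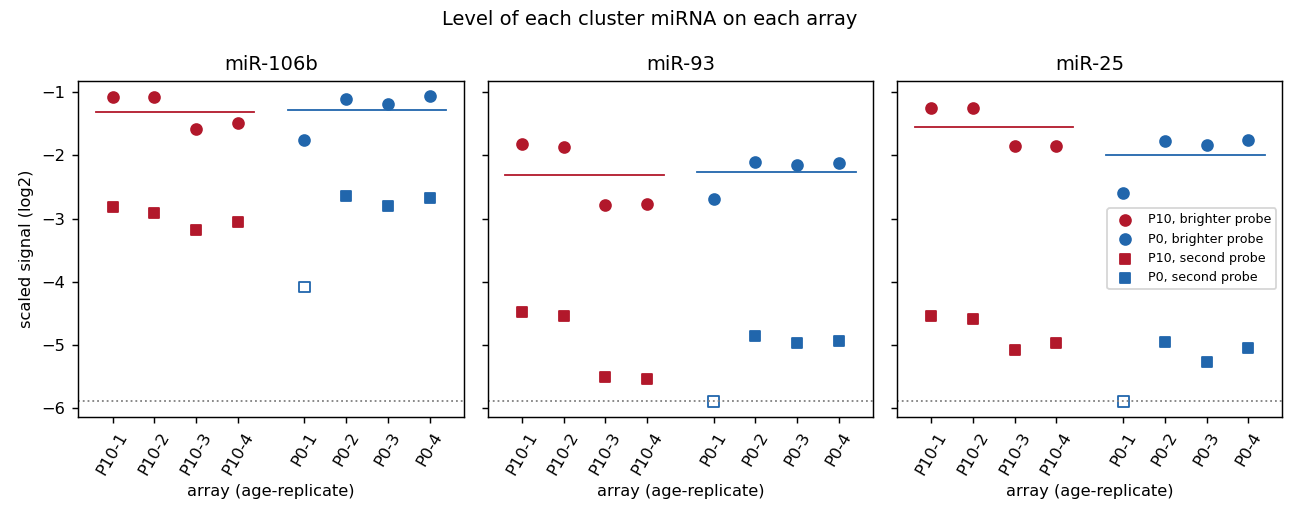
Scaled log2 signal of miR-106b, miR-93 and miR-25 on each array, with P10 in red and P0 in blue, circles for the brighter probe and squares for the second; horizontal lines are means of the brighter probe, open symbols were not detected, and the dotted line is the floor at log2 -5.89. P10 replicates 1 and 2 sit above replicates 3 and 4 in all 3 panels, and P0 replicate 1 sits below the other P0 arrays.

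Spot-to-spot scatter describes the reading of 1 array and not the spread between samples. Over the spots of a brighter probe, the coefficient of variation was 1.86% to 6.66% for miR-106b, 1.92% to 3.88% for miR-93 and 3.26% to 5.32% for miR-25 on the 7 arrays other than P0 replicate 1. On that array it was 13.8%, 5.61% and 16.4% for the 3 miRNAs in the same order. The second probes were detected on all 4 P10 arrays and on P0 replicates 2 to 4, and not on P0 replicate 1. With that array left out and the rest rescaled, they differed between P10 and P0 by -0.47 for miR-106b, -0.28 for miR-93 and 0.12 for miR-25.

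All 3 differences changed in size when P0 replicate 1 was left out. It lay 0.64 (log2) below the mean of P0 replicates 2 to 4 for miR-106b, 0.56 below for miR-93 and 0.80 below for miR-25. Without it and with the scaling redone over 238 probes, the miR-106b difference was -0.36 ± 0.09 (SE), with limma's adjusted p at 0.0225, and all 4 P10 levels were below all 3 P0 levels. In that fit 71 of 168 tested miRNAs, 42.3%, passed, 46 of them, 27.4%, lower at P10 and 25, 14.9%, higher, and the median of all tested miRNAs was -0.17, so 1 of 3 members lies near the background. There miR-93 differed by -0.37 ± 0.15 (adjusted p = 0.0888, limma), also without overlap, and miR-25 by 0.057 ± 0.09 (adjusted p = 0.634, limma). Of the 168 tested miRNAs, 102, or 60.7%, did not overlap between the ages on these 7 arrays, so this too is near the background for 2 of 3 members. Where the same array was left out but the scaling of the 8 arrays was kept, the differences were -0.18 ± 0.17 for miR-106b, -0.18 ± 0.29 for miR-93 and 0.24 ± 0.21 for miR-25, and none passed. The fall of miR-106b thus depended on the scaling as well as on that array, and its adjusted p was 0.0984 in limma when the P10 pairs were also averaged.

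Above the floor and with the same probes, the ratio of 2 cluster miRNAs on an array does not move with its scaling factor. Of the 3 ratios, 2 differed between the ages, without overlap. Among all pairs of miRNAs detected on all 8 arrays, the ratios of 34.3% did not overlap. The 2 ratios share miR-25 and each of the 3 follows from the other 2, so they are not separate results. miR-25 was higher relative to both miR-106b and miR-93 at P10, while miR-93 relative to miR-106b did not differ past the threshold. A ratio of signals is not a ratio of molecules, since probes differ in brightness, so only its change between ages is read.

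The log2 ratio of miR-25 over miR-106b was -0.18, -0.18, -0.27 and -0.36 on P10 replicates 1 to 4, against -0.84, -0.67, -0.65 and -0.69 on P0 replicates 1 to 4. Every P10 array was above every P0 array; the lowest P10 value was that of replicate 4. The mean ratio was -0.25 ± 0.09 at P10 and -0.71 ± 0.09 at P0 (SD, n = 4 each), a change of 0.46, or 1.38-fold. The two-sided exact permutation p was 0.0286, the smallest that 70 arrangements allow, and 0.0429 after Benjamini-Hochberg adjustment over the 3 ratios. Both P10 pairs showed the shift, at -0.18 for replicates 1 and 2 and -0.32 for replicates 3 and 4.

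For miR-25 over miR-93 the log2 ratio was 0.57, 0.61, 0.93 and 0.91 at P10, against 0.09, 0.32, 0.31 and 0.37 at P0. Again no P10 array fell among the P0 arrays. Means were 0.76 ± 0.19 at P10 and 0.27 ± 0.12 at P0 (SD, n = 4 each), a change of 0.48, or 1.40-fold, with an exact permutation p of 0.0286 and 0.0429 after adjustment.

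Between the seed partners miR-93 and miR-106b, the log2 ratio was -0.75, -0.79, -1.21 and -1.27 at P10, against -0.92, -0.99, -0.96 and -1.06 at P0. The first P10 pair was above all P0 arrays and the second pair below all of them. The mean was -1.004 ± 0.27 at P10 and -0.98 ± 0.06 at P0 (SD, n = 4 each), a change of -0.021 with an exact permutation p of 0.83 before and after adjustment.

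These shifts are not particular to the cluster. Among the 2415 pairs that can be made from the 70 miRNAs detected on all 8 arrays, 828, or 34.3%, had ratios that did not overlap between the ages, and 60.3% changed at least as much as miR-25 over miR-106b. The median absolute change over all pairs was 0.60 (log2). A change as small as that of miR-93 over miR-106b or smaller was seen in 1.90% of pairs, although its P10 values lie in 2 separate pairs around the P0 values.

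With P10 replicates 1 and 2 averaged and 3 and 4 averaged, the changes in the miR-25 ratios stayed 0.46 and 0.48, but 15 arrangements allow no exact permutation p below 0.0667, which both reached, or 0.10 after adjustment. Without P0 replicate 1, miR-25 over miR-106b changed by 0.42 (exact permutation p = 0.0286, the smallest that 35 arrangements allow) and miR-25 over miR-93 by 0.42 (exact permutation p = 0.0571), and both had an adjusted p of 0.0857. The second probes gave the same direction on the 7 arrays where they were detected. Their log2 ratio of miR-25 over miR-106b was -1.72, -1.69, -1.90 and -1.91 at P10, against -2.32, -2.47 and -2.38 on P0 replicates 2 to 4, a change of 0.58. Their ratio of miR-25 over miR-93 was -0.06, -0.06, 0.42 and 0.57 at P10, against -0.11, -0.31 and -0.12 at P0, a change of 0.40 that came mostly from P10 replicates 3 and 4. In the authors' deposited log2 matrix, the changes were 0.52 for miR-25 over miR-106b and 0.55 for miR-25 over miR-93, with 0.0429 as the adjusted exact permutation p of both.

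**Figure D2:**
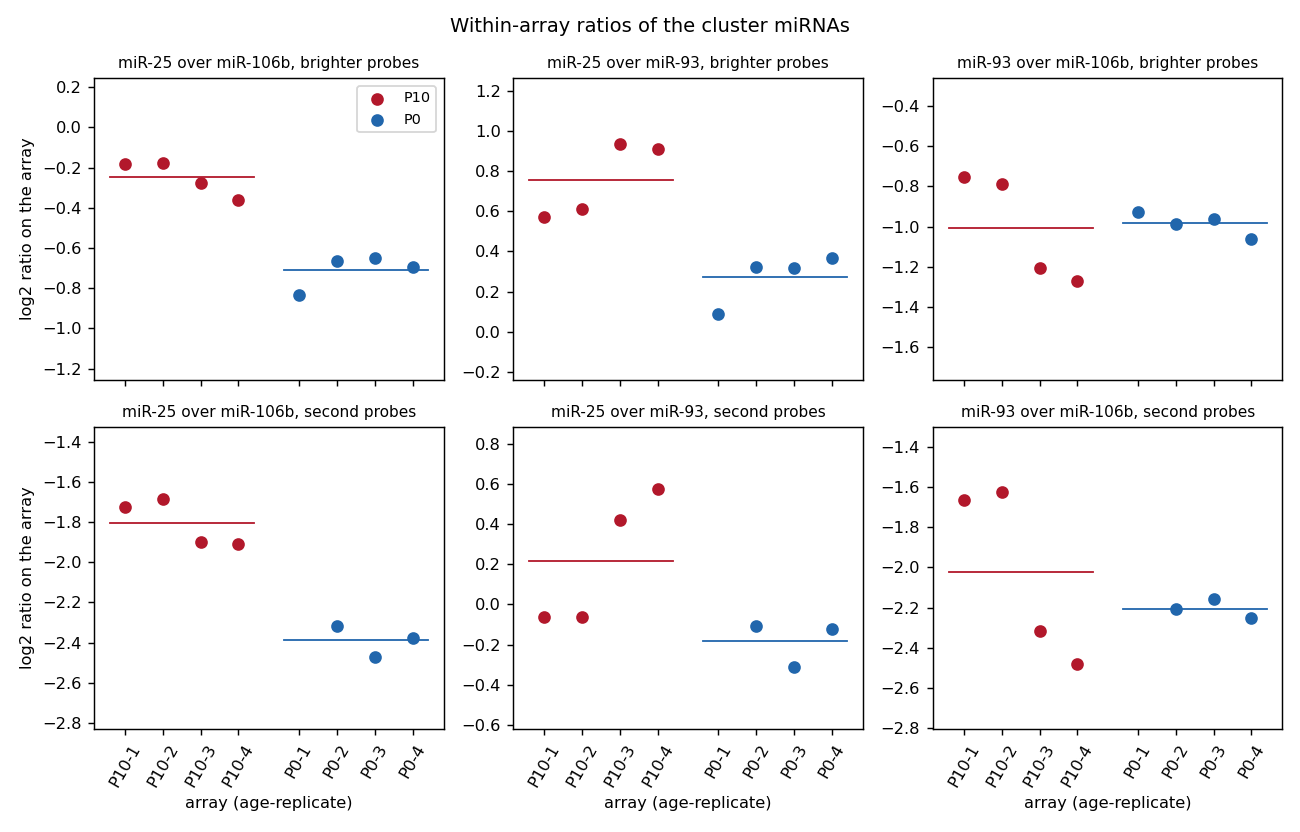
Log2 ratio of 2 cluster miRNAs on each array, P10 in red and P0 in blue, for the brighter probes (top row, 8 arrays) and the second probes (bottom row, 7 arrays); lines are group means and all panels span the same height. miR-25 over miR-106b is higher on all 4 P10 arrays than on all P0 arrays with either probe, while miR-93 over miR-106b splits P10 into a pair above and a pair below P0.

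The other strands of the same hairpins were at background. miR-106b*, miR-93* and miR-25* are read by 10 probes, and none of the 3 was detected on any array by the rule that at least 0.5 of a probe's spots lie well above background. Of 160 spots each over the 8 arrays, 4 of miR-106b*, 1 of miR-25* and 0 of miR-93* were well above background. The highest mean signal was 15.9 units, for the longest miR-106b* probe on P10 replicate 1. No difference between ages can be read for these strands.

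None of the tested relatives with the same seeds passed the threshold. Over all 158 tested miRNAs 14, or 8.86%, passed, so with this few relatives none is near the background. All 3 tested relatives of miR-106b and miR-93 had positive differences with all 8 arrays: 0.25 ± 0.42 for miR-17-5p, 0.26 ± 0.41 for miR-20a and 0.36 ± 0.42 for miR-20b-5p (SE, n = 4 per age). Their median was 0.26, against 0.031 over all 158 tested miRNAs, and it became -0.09 without P0 replicate 1, against -0.17 over all. Without that array all 3 differences were negative, at -0.24, -0.09 and -0.08 in the same order. Of the P0 arrays, miR-17-5p and miR-20b-5p were detected on only 3. Like miR-93, these 3 relatives were far higher on P10 replicates 1 and 2 than on 3 and 4, by 1.17 to 1.40 (log2).

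Of the 4 relatives of miR-25 listed, miR-92a was the one detected. It stood at -0.13, -0.09, -0.93 and -1.03 on P10 replicates 1 to 4, against -0.9999, -0.97, -0.88 and -0.90 at P0. The first P10 pair was above and the second level with the P0 arrays, as for miR-25. Its difference was 0.40 ± 0.27 (SE; adjusted p = 0.349, limma), or 0.19 without P0 replicate 1. miR-32, miR-92b and miR-363 were detected on no array.

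In the paralogous clusters the remaining members are miR-18a, miR-19a and miR-19b. They differed by 0.74 ± 0.70, 1.00 ± 0.62 and 0.60 ± 0.37 (SE, n = 4 per age). None passed in limma, with adjusted p of 0.489 for miR-18a and 0.308 for the others, against 8.86% of all tested miRNAs that passed. Without P0 replicate 1 the differences were 0.12, 0.34 and 0.22. Of the P0 arrays, miR-18a and miR-19a were detected on only 3.

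**Figure D3:**
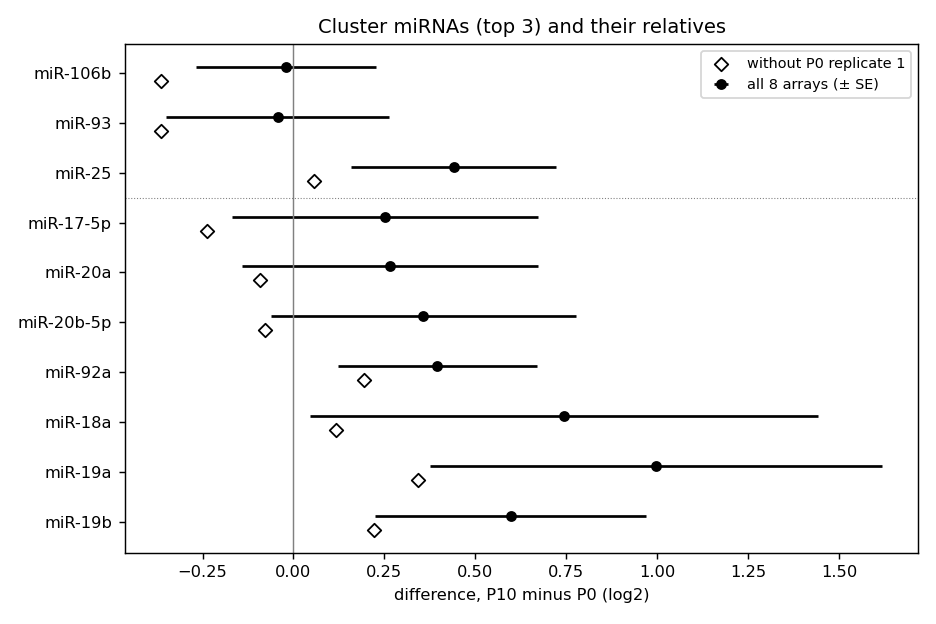
Difference between P10 and P0 (log2) for miR-106b, miR-93 and miR-25 above the dotted line and 7 relatives below it, as black circles with standard errors for all 8 arrays and as open diamonds without P0 replicate 1 and rescaled. Every diamond lies left of its circle, and the diamond of miR-106b is at -0.36.

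Other miRNAs followed each cluster member over the 8 arrays. By Pearson correlation of the scaled log2 levels (n = 8), the 5 most like miR-106b were miR-27b (0.988), miR-23b (0.974), miR-28 (0.950), miR-17-5p (0.945) and miR-362* (0.929). Those most like miR-93 were miR-362* (0.996), miR-322 (0.981), miR-15b (0.974), miR-503 (0.968) and let-7a (0.964). Those most like miR-25 were miR-151 (0.997), miR-140 (0.996), its other strand miR-140* (0.993), miR-19a (0.989) and miR-29c (0.986). The 3 lists share no miRNA except miR-362*, which is in those of miR-106b and miR-93. These arrays share the low P0 replicate 1 and the P10 pairs. All 5 miRNAs most like miR-25 were detected on only 3 of the 4 P0 arrays, as were miR-28, miR-17-5p, miR-362* and miR-503. Their correlations thus include a P0 reading that was not detected. Among the members themselves, r was 0.916 for miR-93 with miR-106b, 0.799 for miR-25 with miR-106b and 0.735 for miR-25 with miR-93, and without P0 replicate 1 these became 0.679, -0.315 and 0.115.

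Markers of other cells moved along the same arrays. Counts past the threshold below stand against 8.86% of all tested miRNAs. Sums are of scaled signals before flooring, with negative signals set to 0, so some lie below the floor of 0.0169. The 3 fibroblast markers miR-199a-3p, miR-199a-5p and miR-214 summed to a scaled signal of 2.62 to 2.69 on P10 replicates 1 and 2 and 0.244 to 0.264 on P10 replicates 3 and 4, against 0.116 to 0.180 on P0 arrays, with 0 of 3 past the threshold in limma. The 5 listed cardiac markers on the array summed to 9.26 to 10.1 on P10 replicates 1 and 2 and 19.9 to 20.7 on replicates 3 and 4, against 11.7 to 17.1 at P0, with 1 of 5, miR-208, past the threshold and higher at P10. All 4 P0 values of miR-208 were at the floor, and its adjusted p was 0.0532 in limma without P0 replicate 1. The other cardiac markers went the other way, and none passed. The differences were -0.18 for miR-1, -0.50 for miR-133a, -0.020 for miR-133b and -0.75 for miR-499. Without P0 replicate 1 they were -0.51, -0.78, -0.30 and -1.22 in the same order. The endothelial miR-126 rose by 2.17 ± 0.43 (SE; adjusted p = 0.0216, limma), or 1.54 without P0 replicate 1, with the endothelial sum at 0.151 to 0.251 on P10 arrays, against 0.00724 to 0.0620 on P0 arrays, and miR-126* detected on none. The smooth muscle pair miR-143 and miR-145 summed to 0.852 to 1.17 at P10, against 1.37 to 2.17 at P0, and miR-143 fell by 0.92 ± 0.23 (adjusted p = 0.0434, limma), with a difference of -1.24 without P0 replicate 1. The levels of miR-106b, miR-93 and miR-25 were all higher on P10 replicates 1 and 2 than on replicates 3 and 4. The fibroblast, leukocyte and endothelial sums were also higher on that pair. The cardiac, smooth muscle, neural and erythroid sums were lower on it, with smooth muscle at 0.852 to 0.901, against 1.11 to 1.17 on replicates 3 and 4. The part of other cells in the levels and ratios was not tested.

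The remaining marker lists had low sums. Leukocyte markers, 5 of 6 on the array, summed to 0.205 to 0.208 on P10 replicates 1 and 2 and 0.0610 to 0.0651 on P10 replicates 3 and 4, against 0.0411 to 0.0503 on P0 replicates 2 to 4 and 0.194 on P0 replicate 1. They thus split the P10 pairs in the same direction as the cluster miRNAs. Of these markers 2 were tested. miR-146a, detected on 1 P0 array and at the floor on all of them, passed the threshold. It was higher at P10 with and without P0 replicate 1. miR-223, detected on all arrays, differed by -0.24 ± 0.69 (SE; adjusted p = 0.836, limma), or 0.28 without P0 replicate 1. Its level was -2.41 (log2) on P0 replicate 1, against a mean of -5.24 on P0 replicates 2 to 4. miR-142-5p was detected on no array. Neural markers summed to 0.0504 to 0.0566 on P10 replicates 1 and 2 and 0.0630 to 0.0631 on P10 replicates 3 and 4. At P0 they summed to 0.0178 to 0.0697, and miR-9 and miR-124 were detected on no array. Erythroid markers, 2 of 3 on the array, summed to 0.00367 to 0.00458 on P10 replicates 1 and 2 and 0.0170 to 0.0180 on P10 replicates 3 and 4. At P0 they summed to 0.0238 to 0.0336 on replicates 2 to 4 and 0.00186 on replicate 1, with miR-144 detected on no array. miR-451 was detected on 2 P10 and 3 P0 arrays. It was tested only without P0 replicate 1 and differed there by -0.74 (adjusted p = 0.0121, limma).

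**Figure D4:**
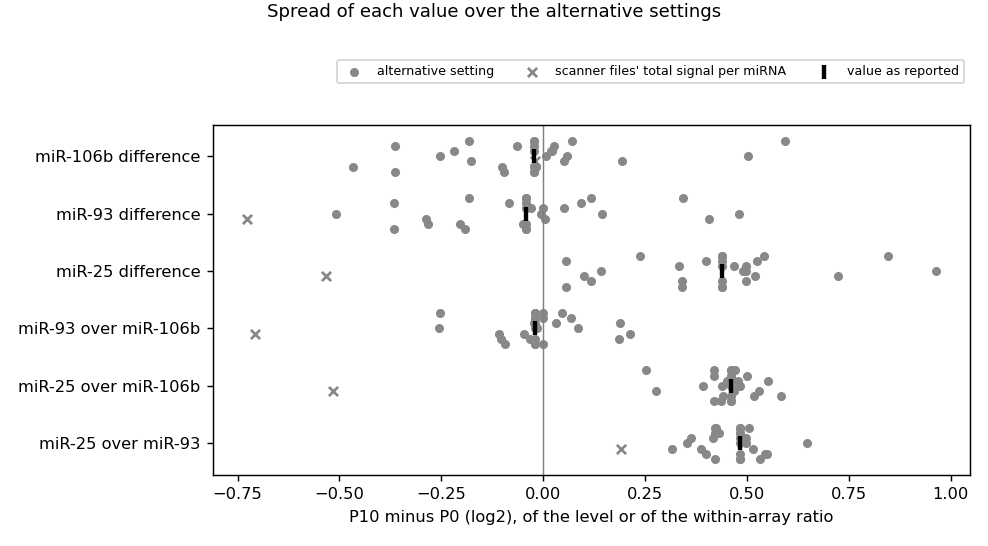
Each value as reported (black bar) and under the 29 alternative settings (grey), as the P10 minus P0 log2 difference of a level or of a within-array ratio; crosses are the total signal per miRNA of the scanner files. The miR-25 ratios stay above 0 except for the cross of miR-25 over miR-106b at -0.51, while the differences of miR-106b and miR-93 fall on both sides of 0.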

How the data were processed

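Per the file headers, the deposited intensities come from Agilent Feature Extraction 10.7.1.1 (build rn4). In the processed signal used, a detrended local background has been subtracted and arrays are not scaled to each other. The authors' deposited matrix holds log2 values. How it was normalized is not stated in the sources used here.

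After removal of spots flagged as outliers, a probe was the mean of its spots. Signals were expressed relative to the 75th percentile of an array over 111 probes detected on all 8 arrays, floored at 0.0169 (log2 -5.89) and log2-transformed. A miRNA took the value of its brightest probe. The 158 miRNAs detected on all 4 arrays of an age were fitted with limma 3.58.1 in R 4.3.3, with Benjamini-Hochberg adjustment. Changes in ratios were tested by exact permutation of the arrays. The fit was also run on simulated independent arrays with large planted changes. That run does not cover near-identical pairs, an outlying array or small differences. The number of arrays limits precision.

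Members, lists and the miRNAs named (members, their star strands, listed relatives and markers, and the 5 most correlated miRNAs) were chosen with earlier results of these data known. Alternatives covered scaling, background, floor, filter, probe and arrays left out. Sequences and gene spans are from RefSeq (GRCr8).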

Additional observations from a re-analysis of the deposited data

Results flagged for a closer look

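In 2 of 12 groups of 4 arrays examined (3 levels and 3 ratios at each age), 1 array stood apart from the other 3 by Dixon's criterion, which chance alone flags in about 1 of 20 groups. Both are P0 replicate 1, the array with the lowest scaling signal. It gave miR-93 a level of -2.69 (log2), against -2.16 to -2.10 on the other P0 arrays, and miR-25 a level of -2.60, against -1.84 to -1.76. The differences and ratios of the 3 miRNAs without this array are given in the text above; correlations with other miRNAs were computed on all 8 arrays.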

How the results depend on the processing

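The rise of miR-25 relative to miR-106b and miR-93 kept its direction in 28 and 29 of 29 settings, and its adjusted exact permutation p stayed under 0.05 in 17 each; median scaling, no scaling, other floors, filters and the trend option cannot change a ratio here. It missed the threshold with these changes, for miR-106b and then miR-93: 0.25 and 0.51 with the 75th percentile of all probes, 0.28 and 0.39 after normexp, 0.44 and 0.35 with second probes, 0.58 and 0.40 with second probes and P0 replicate 1 left out, 0.39 and 0.65 without P10 replicates 1 and 2, 0.53 and 0.32 without P10 replicates 3 and 4, 0.46 and 0.48 with P10 pairs averaged, and 0.42 and 0.42 with P0 replicate 1 left out, whether the scaling was redone, kept or combined with averaged pairs. The fits with 6 or fewer samples cannot pass. Leaving out 1 array at a time gave 0.42 to 0.50 and 0.42 to 0.54. With the scanner files' total per miRNA the changes were -0.51 and 0.19, and miR-25 turned to -0.53. On P0 replicate 1 that total was 170.3 units for miR-25 and 75.4 for miR-93, against 12.7 and 11.9 in the authors' raw columns.

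The differences of miR-106b and miR-93 turned positive with the 75th percentile of all probes (0.59 and 0.34), no scaling (0.50 and 0.48), the mean of probes (0.019 and 0.051), second probes (0.059 and 0.14) and without P10 replicates 3 and 4 (0.19 and 0.41). Over single arrays left out they ranged from -0.36 to 0.070 and from -0.37 to 0.12, and miR-25 from 0.057 to 0.54. miR-106b passed the threshold at -0.36 without P0 replicate 1 and at -0.47 with its second probe there. The ratio of miR-93 over miR-106b turned to 0.19 with quantile scaling, 0.032 with the mean of probes, 0.086 with second probes, 0.19 with second probes and P0 replicate 1 left out and 0.21 without P10 replicates 3 and 4, and ranged from -0.10 to 0.068 over single arrays left out. Both also moved down: with the scanner total, miR-93 differed by -0.73 and its ratio to miR-106b by -0.71, and without P10 replicates 1 and 2 by -0.51 and -0.26.

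The 14 calls over all miRNAs became 0 with the 75th percentile of all probes (14 at an unadjusted p under 0.05 in limma), 0 after normexp (22 unadjusted) and 0 with P10 pairs averaged (26 unadjusted). They became 4 with no floor, 4 with all 677 tested, 8 with the mean of probes, 7 with second probes, 3 with the scanner total, 1 in the authors' matrix, 76 without P10 replicates 3 and 4, 48 with second probes and P0 replicate 1 left out, 30 with pairs averaged and that array left out, 63 with that array left out and scaling kept, and 4 to 71 over single arrays left out. With no scaling, 11 were higher and 0 lower, against 7 and 7, and the median of all miRNAs was 0.35. The cause of these moves was not tested. Settings that leave out P0 replicate 1 with second probes, averaged pairs or kept scaling were chosen after seeing the data.

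Deviations of same-numbered arrays from the mean of their age correlated at 0.16, -0.15, 0.03 and 0.14. The P10 pairs and the low P0 replicate 1 enter these deviations, so the values cannot decide whether replicate numbers carry a pairing. With the replicate number as a block, 4 miRNAs were called, and the ratio changes of 0.46 and 0.48 had an adjusted sign-flip p of 0.1875 by exact permutation, where 16 arrangements cannot pass. A slide block was not run, since all arrays share 1 slide.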
